A study of Mus musculus with 11 samples.

Results

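Chaperones and genes of the unfolded protein response were followed in mouse ventricle across littermates without the transgene (WT), hypertrophic carriers (Hyp) and dilated carriers (Dil). A gene was a member if its platform symbol began with Hsp and a digit or a letter from a to h, with Dnaj, with Pdia, or with Cct and a digit, or if it was Xbp1, Calr, Canx, Atf4, Atf6 or Ddit3. This gave 55 genes on 109 spots, and 54 of them were tested among 8106 named genes. The tested members were 15 of the endoplasmic reticulum (ER), 3 transcription factors, 30 of the cytosol and nucleus, 5 of mitochondria, and Hspg2, the matrix proteoglycan perlecan, which carries a matching symbol but is no chaperone. No spot was annotated to Ddit3, and Hspa1a had no value on any array.

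The 12 mice were males of the line TG1306/1R, aged about 60 weeks, and their strain is given as C57/BL6. The line carries an angiotensinogen transgene driven in heart muscle cells by the alpha-myosin heavy chain promoter, and angiotensinogen is the precursor of angiotensin II. WT mice were negative littermates (-/-), Hyp mice were heterozygous (-/+) with concentric hypertrophy, and Dil mice were heterozygous with a dilated heart. No mouse received a treatment. Hyp and Dil hearts were picked by genotype, chamber shape, heart weight and hypertrophic marker genes, so these features describe the groups. The heart weight index ran from 4.2 to 4.9 mg/g in the 4 WT mice, from 5.3 to 5.8 mg/g in the 4 Hyp mice and from 7.8 to 9.2 mg/g in the 4 Dil mice. The labels of the mouse Hyp3 give it as 5.3 mg/g on one array and 5.6 mg/g on another. Mice are numbered 1 to 4 in each group, and equal numbers make a set. RNA of both ventricles and the septum was hybridised in pairs from one set to 11 cDNA arrays with 2 dyes: 4 arrays of WT with Hyp, 3 of WT with Dil and 4 of Hyp with Dil. Set 2 has no WT and Dil array here.

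Proteins that are secreted or sit in membranes fold in the ER, where Hspa5 (BiP), Hsp90b1 (Grp94), the lectins calreticulin and calnexin, J-domain partners and disulfide isomerases hold them until folded. Unfolded protein there triggers the unfolded protein response, in which spliced Xbp1, cleaved Atf6 and newly translated Atf4 turn on chaperone and quality control genes. Cytosolic folding is served by Hsp70, Hsp90, small heat shock proteins and the Cct ring, many of them under heat shock factor control. Heart muscle uses both systems, for membrane calcium handling proteins and secreted peptides on one side and for the contractile filaments on the other.

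A value below is the log2 ratio of the deposited table, turned so that a positive value means more RNA in the first group named. A direct array is one that held both groups of a contrast, and its value is given by set. A set estimate instead combines all arrays of a set after the dye effect is removed. The fitted change combines all arrays and is given ± its standard error, with 4 mice per group. A member was called changed at an adjusted p under 0.05 by limma over all 12097 features. The direction rests on the dyes and is likely, not certain: no source used here says which dye is the numerator, and red (Cy5) over green (Cy3) was assumed because it puts Agt, the transgene's gene, above WT in both carrier groups. With the opposite direction every sign turns. The base of the logarithm is not stated either, and if it is the natural one, each fold below is too small. Agt, which therefore checks the labels only in part, read 1.83, -0.24 and 3.60 on the Hyp and WT arrays of sets 2, 3 and 4, and 2.61, 2.28 and 2.46 on the Dil and WT arrays of sets 1, 3 and 4. The fit put it at 2.09 ± 0.40 in Hyp minus WT (adjusted p = 0.871) and at 2.15 ± 0.40 in Dil minus WT (adjusted p = 0.0311). The Hyp3 and WT3 array is the one that did not show more Agt in the carrier.

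The DNA before the starts of these genes was read from the RefSeq table of the build GRCm38.p6, whose windows hold 250 bases before and 50 bases after the annotated start. The ER stress element, the letters CCAAT and CCACG with 9 bases between them, is the known docking site of Atf6 together with the CCAAT-binding factor NF-Y, and was searched on both strands. It lay in 6 of the 13 ER members with a window (46.2%), against 39 of 32851 windows of all genes (0.119%). None of the 26 cytosolic, 3 mitochondrial and 2 transcription factor genes with a window held it. The element was chosen as one already known for the unfolded protein response, so these shares are a description and not a test. The 6 genes include the main Hsp70, Hsp90 and both lectins of the ER, and their elements are shown here. Each line gives the 5′ to 3′ run on the strand that reads CCAAT first, with the CCAAT and CCACG parts in capitals and 10 bases on either side. 
Hspa5, chr2:34772015-34772053, plus strand, the gene's own: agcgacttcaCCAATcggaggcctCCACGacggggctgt
Calr, chr8:84847065-84847103, plus strand, opposite to the gene: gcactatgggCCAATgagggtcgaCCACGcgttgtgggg
Hsp90b1, chr10:86705628-86705666, minus strand, the gene's own: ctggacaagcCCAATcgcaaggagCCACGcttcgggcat
Hsp90b1, chr10:86705523-86705561, plus strand, opposite to the gene: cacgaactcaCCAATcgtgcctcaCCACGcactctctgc
Canx, chr11:50325790-50325828, minus strand, the gene's own: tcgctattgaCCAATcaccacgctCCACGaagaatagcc
Pdia6, chr12:17266481-17266519, plus strand, the gene's own: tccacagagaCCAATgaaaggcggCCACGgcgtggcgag
Dnajc3, chr14:118937817-118937855, plus strand, the gene's own: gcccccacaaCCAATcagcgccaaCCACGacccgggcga
The 9 bases between the fixed parts differ among the 7 elements, and the near end of the element lies 47 bases before the annotated start in Hspa5, 80 in Pdia6, 87 in Dnajc3, 127 in Canx and 144 in Calr. Hsp90b1 has a near copy at 89 and a far copy at 194 bases. A match is a description of letters, not evidence of binding.

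**Figure D1:**
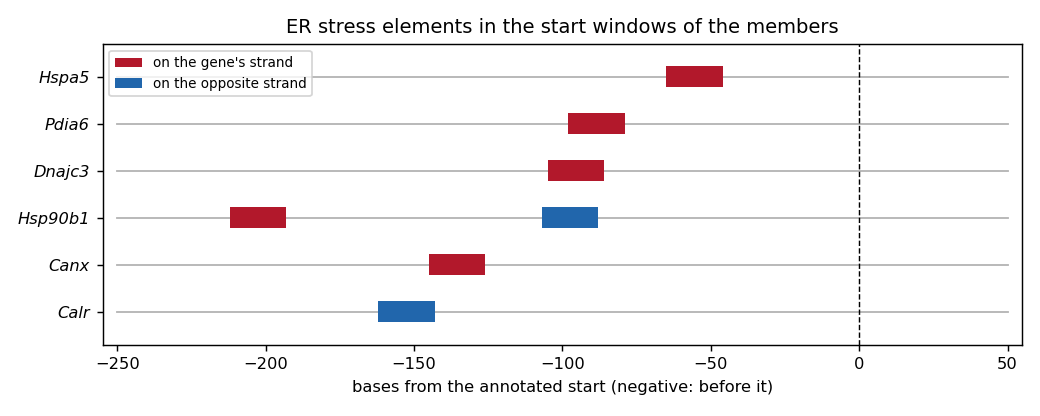
Position of the ER stress elements in the start windows of 6 members, in bases from the annotated start, with red bars on the gene's strand and blue bars on the opposite one. The elements sit between 47 and 212 bases before the start, and Hsp90b1 alone shows more than 1.

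The whole stretch before the start is shown for Hspa5, the central ER chaperone, and for Dnajc3, the member whose Hyp value stood furthest above its error, with the element in capitals.
Hspa5, chr2:34771840-34772089, plus strand: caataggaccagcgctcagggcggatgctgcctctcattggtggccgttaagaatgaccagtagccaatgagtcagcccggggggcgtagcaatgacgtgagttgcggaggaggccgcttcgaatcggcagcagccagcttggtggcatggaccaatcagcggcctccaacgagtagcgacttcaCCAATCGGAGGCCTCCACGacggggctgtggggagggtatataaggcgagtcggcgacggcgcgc
Dnajc3, chr14:118937682-118937931, plus strand: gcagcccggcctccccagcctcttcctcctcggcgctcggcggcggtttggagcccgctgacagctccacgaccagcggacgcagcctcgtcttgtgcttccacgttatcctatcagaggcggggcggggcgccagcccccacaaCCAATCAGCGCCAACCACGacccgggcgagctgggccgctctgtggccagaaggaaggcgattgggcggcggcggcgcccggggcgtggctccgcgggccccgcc
Other motifs were searched in the same windows. CCACG alone, which every ER stress element contains, was in 84.6% of ER and 61.5% of cytosolic genes with a window and in 32.8% of all windows. TGACGTG, the core of the unfolded protein response element, was in the ER members Hspa5 and Dnajc25 and in 2.01% of all windows. The ER stress element II, ATTGG and CCACG with 1 base between them, was in Dnajb11 just after its start and in 0.0365% of all windows. The heat shock element, 3 alternating GAA and TTC units with 2 bases between them, was in the cytosolic Dnajb6 and Hsph1, in the mitochondrial Hspd1 and in 0.603% of all windows. All motifs were searched on both strands, 10 of the 55 members had no window in the table, and absence from these windows says nothing on the factor.

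In hypertrophic hearts the ER members stood above WT as a group, mostly in sets 1 and 2, while no feature of the array passed the test. The median fitted change of the 15 ER members was 0.35 (range 0.01 to 0.68), against 0.00 over all features, 0.05 over the cytosolic and -0.07 over the mitochondrial members. Of the members, 0 passed the adjusted test in Hyp minus WT (limma, background 0% of 12097 features, smallest adjusted p of any feature 0.871). At an unadjusted p under 0.05, 11 of 15 ER members were above WT and 0 below, beside a background of 2.43% of features above and 1.98% below. All 15 had a fitted change above 0, as had 50.5% of features, and 8 of the 14 with all 4 direct arrays were positive on each, as were 7.23% of features. The median of the ER set estimates was 0.37, 0.76, 0.17 and 0.11 in sets 1 to 4. On the direct arrays it was 0.43, 0.66, 0.08 and 0.12. Hyp sat in the Cy5 channel of the direct arrays in sets 1 and 4 and in Cy3 in sets 2 and 3, so the high pair held 1 array of each orientation. In whole ventricle, fewer cells of a type and less RNA per cell cannot be told apart.

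The count of 11 was 7 without set 1, 8 without set 2 or without set 3, and 1 without sets 1 and 2, where the ER median was 0.16 and the cytosolic median -0.03. It was 7 with the realigned WT1 and Hyp1 array left out and 6 from the direct arrays alone.

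**Figure D2:**
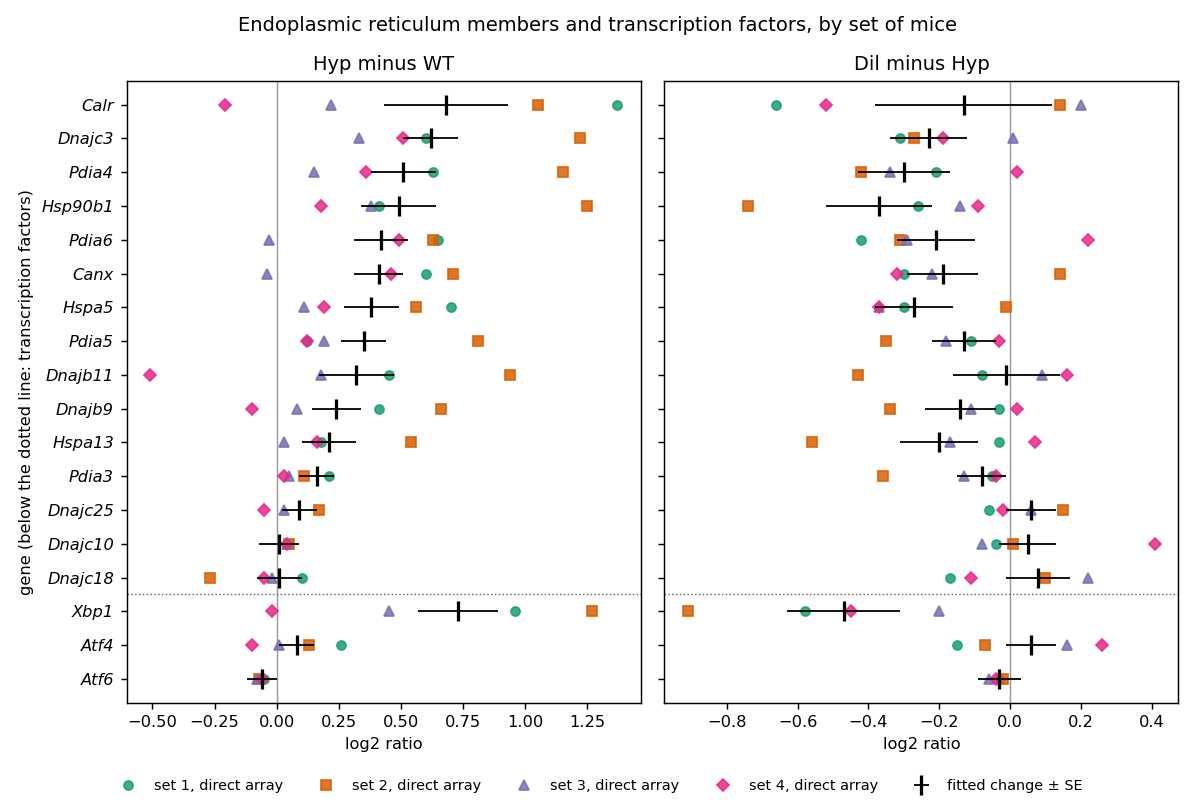
Log2 ratios of the 15 ER members and 3 transcription factors, with Hyp minus WT on the left and Dil minus Hyp on the right; symbols are direct arrays by set, and black ticks with bars are the fitted change ± SE. On the left most orange squares and green circles (sets 2 and 1) lie right of the others, and on the right most fitted changes lie below 0.

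Among the transcription factors, Xbp1 had a fitted Hyp minus WT change of 0.73 ± 0.16 (1.66-fold, adjusted p = 0.871). Its direct arrays read 0.96, 1.27, 0.45 and -0.02 in sets 1 to 4, so sets 1 to 3 were above WT and set 4 was level with it. A cDNA spot measures total Xbp1 RNA and not its splicing. Atf4 read 0.26, 0.13, 0.01 and -0.10, with a fitted change of 0.08 ± 0.07. Atf6 read -0.05, -0.07, -0.08 and -0.06, with a fitted change of -0.06 ± 0.06. Averaged over spots, both were within 0.26 of WT on each direct array, but the 2 Atf4 spots differed: one read 0.54, 0.28, 0.01 and -0.18 and the other lay between -0.02 and 0.01. Both factors are known to be controlled mainly after transcription.

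The Hsp70 and Hsp90 chaperones of the ER followed Xbp1 in their order by set only in part. Hspa5, which binds unfolded chains and holds the stress sensors inactive, read 0.70, 0.56, 0.11 and 0.19 in sets 1 to 4 and had a fitted change of 0.38 ± 0.11 (1.30-fold, adjusted p = 0.900). Hsp90b1, which folds secreted and cell surface proteins, read 0.41, 1.25, 0.38 and 0.18 (0.49 ± 0.15, adjusted p = 0.923). Hspa13, a distant Hsp70 of the ER, read 0.18, 0.54, 0.03 and 0.16 (0.21 ± 0.11). All 3 were above WT on each of the 4 arrays, with the smallest values in sets 3 and 4 for Hspa5 and Hsp90b1.

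Hspa5 was spotted 6 times, and its spots split. On 3 spots the mean over the direct arrays was 0.91, 0.89 and 0.76, and the other spots gave 0.05, -0.11 and -0.17. In sets 1 and 2 the strongest spot read 1.27 and 1.74, and the lowest one -0.12 and -0.64. The gene's value of 0.38 therefore averages spots near 0 with spots near 0.9, and which clones carry Hspa5 sequence was not tested. Pdia6 split likewise (0.82 and 0.06), as did Dnajb9 (0.51 and 0.02), whereas the 3 Dnajc3 spots gave 0.84, 0.77 and 0.38, the 5 Canx spots 0.27 to 0.58 and the Hsp90b1 spots 0.59 and 0.57. Some Canx and Hsp90b1 spots have no value in set 1, and their means leave that set out. Of the 32 members with several spots, 22 had spots of a single sign in Hyp minus WT.

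Of the J-domain partners that deliver clients to Hspa5, Dnajc3 (P58IPK, also an inhibitor of the eIF2alpha kinases) was the member furthest above WT for its error. It read 0.60, 1.22, 0.33 and 0.51, above WT in every set, with a fitted change of 0.62 ± 0.11 (1.54-fold, adjusted p = 0.871). Dnajb9 (ERdj4) read 0.41, 0.66, 0.08 and -0.10 (0.24 ± 0.10). Dnajb11 (ERdj3) read 0.45, 0.94, 0.18 and -0.51 (0.32 ± 0.15), the widest spread of the 6. The other J-domain members were near 0, namely Dnajc10 (ERdj5, a reductase) at 0.01 ± 0.08, Dnajc18 at 0.01 ± 0.09 and Dnajc25, which has no value on the realigned array, at 0.09 ± 0.07.

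The disulfide isomerases, which form and reshuffle disulfide bonds, were all above 0. Pdia4 (ERp72) read 0.63, 1.15, 0.15 and 0.36 (0.51 ± 0.13, 1.42-fold, adjusted p = 0.900). Pdia6 (P5) read 0.65, 0.63, -0.03 and 0.49 (0.42 ± 0.11). Pdia5 read 0.12, 0.81, 0.19 and 0.12 (0.35 ± 0.09), with set 2 far above the other sets, and was at 0.20 without set 2. Pdia3 (ERp57), the partner of the lectins, read 0.21, 0.11, 0.05 and 0.03 (0.16 ± 0.07). Set 3 gave the smallest value for Pdia4 and Pdia6, and no isomerase was more than 0.03 below WT on any array.

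Both lectin chaperones, which retain glycoproteins until folded and buffer calcium in the case of calreticulin, were far apart between sets. Calr read 1.37, 1.05, 0.22 and -0.21 (0.68 ± 0.25, 1.60-fold, adjusted p = 0.999), from the largest value of any ER member in set 1 to a negative one in set 4. Canx read 0.60, 0.71, -0.04 and 0.46 (0.41 ± 0.10, 1.33-fold, adjusted p = 0.871). For Canx set 3 was the low one, and for Calr sets 3 and 4 were.

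The 6 ER members with the stress element had a median of 0.46 in Hyp minus WT (range 0.38 to 0.68), and all 6 were at an unadjusted p under 0.05. The 7 ER members with a window and no element had a median of 0.24 (0.01 to 0.51), with 5 at that p. All of these calls were above WT, beside 2.43% of features above and 1.98% below. Medians of the set estimates were 0.53, 0.89, 0.24 and 0.24 with the element and 0.35, 0.66, 0.17 and 0.07 without it. On the direct arrays they were 0.63, 0.88, 0.16 and 0.32 with it and 0.31, 0.66, 0.08 and 0.03 without it. Outside the members, 7 tested genes had the element, with a median of 0.02 (-0.09 to 0.38). At an unadjusted p under 0.05, 1 of these 7 was above WT and 0 below. The highest of them was Syvn1, the ubiquitin ligase of ER-associated degradation (0.38 ± 0.12). No test was made of these differences.

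Cytosolic members were close to WT in hypertrophic hearts, with a few exceptions that had set 2 highest. Of 30 tested, 3 were at an unadjusted p under 0.05, all above WT, beside 2.43% of features above and 1.98% below. Hsp90aa1, the stress-inducible cytosolic Hsp90, read 0.40, 1.16, 0.35 and 0.20 in sets 1 to 4 (0.48 ± 0.14, 1.39-fold, adjusted p = 0.900). Hspa1b, the inducible Hsp70, read 0.64, 2.13, 0.04 and -0.02 (0.69 ± 0.31), so a single mouse pair of set 2 gave most of its value. RNA of its near-identical neighbour Hspa1a can hybridise to the same clones. Hspa8, the constitutive Hsp70, read 0.17, 0.56, 0.16 and 0.02 (0.21 ± 0.09), and its 6 spots had means from 0.00 to 0.35. Dnaja1, a J-domain partner of Hspa8, read 0.66, 1.14, 0.14 and -0.15 (0.38 ± 0.17). The 5 Cct subunits lay between -0.09 and 0.12, and the small heat shock proteins Hspb8 and Hspb1 at -0.17 ± 0.09 and 0.10 ± 0.12. The mitochondrial members ran from -0.08 to 0.03, with 0 of 5 at an unadjusted p under 0.05.

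In dilated hearts the members that passed the test were cytosolic. Of the 54 members, 4 passed in Dil minus WT (background 2.15% of 12097 features): Dnajc2, Hsp90aa1 and Hspa4 rose and Hspa12a fell, beside 1.00% of features higher and 1.15% lower. Over the 30 cytosolic members the median was 0.11 (range -0.41 to 0.74), with 7 above and 2 below WT at an unadjusted p under 0.05, beside 8.09% and 8.15% of all features. On all 3 direct arrays 12 of the 30 were above WT and 2 below, beside 14.0% and 14.3% of features.

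Hsp90aa1 had the largest change, with 0.36, 0.79 and 0.72 on the Dil and WT arrays of sets 1, 3 and 4 and a fitted change of 0.74 ± 0.15 (1.67-fold, adjusted p = 0.0350). Its 3 spots gave means of 0.67, 0.61 and 0.58. Dnajc2, a ribosome-bound J-domain protein that acts on nascent chains and is also found on chromatin, read 0.47, 0.40 and 0.44 (0.41 ± 0.07, 1.32-fold, adjusted p = 0.0169). Its 2 spots were less even than their mean, with 0.74, 0.17 and 0.54 on one and 0.20, 0.63 and 0.34 on the other. Hspa4, an Hsp110 relative that recharges Hsp70 with ATP, read 0.18, 0.27 and 0.79 (0.45 ± 0.10, 1.36-fold, adjusted p = 0.0412), with set 4 highest. Hspa12a, an atypical Hsp70 relative, read -0.07, -0.56 and -0.71 (-0.41 ± 0.09, adjusted p = 0.0454), close to WT in set 1 and low in sets 3 and 4, with 0.16 and -0.29 on its spots in set 1. These calls rest on few mice: 0 of the 4 passed without set 3 or without set 4, 1 without set 2, 1 with the realigned array left out, and 0 with the set number as a block. The fitted changes kept their sign under all 16 alternatives, with Dnajc2 between 0.34 and 0.45 and Hsp90aa1 between 0.62 and 0.87.

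**Figure D3:**
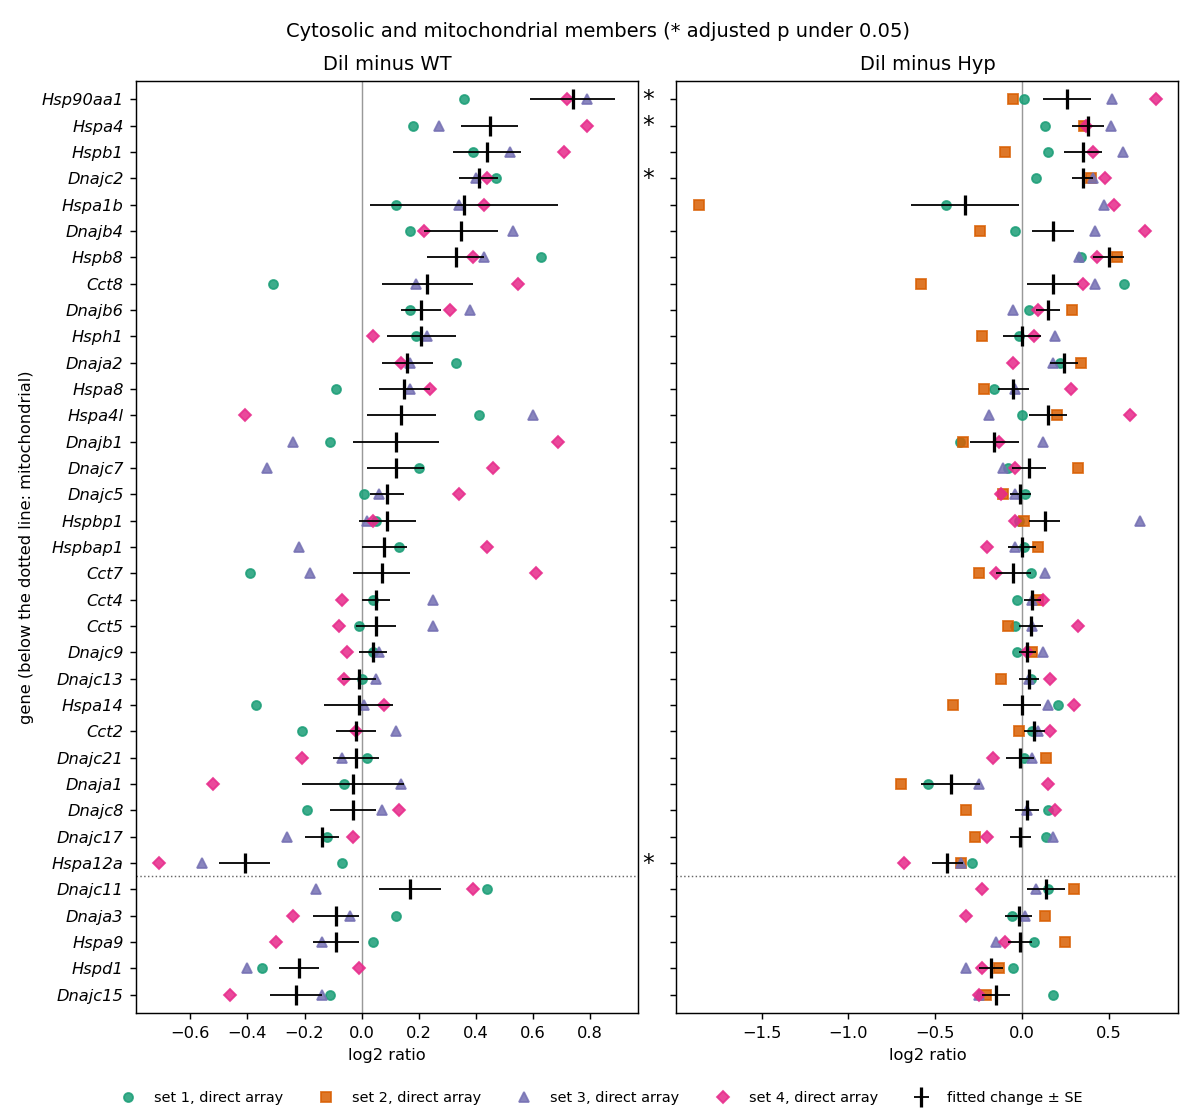
Log2 ratios of the 30 cytosolic and 5 mitochondrial members, with Dil minus WT on the left and Dil minus Hyp on the right; symbols are direct arrays by set (set 2 has none on the left), black ticks with bars are the fitted change ± SE, and stars mark an adjusted p under 0.05. The 4 stars stand at Hsp90aa1, Hspa4, Dnajc2 and Hspa12a, and on the right Hspb8 and Dnajc2 lie above 0 on all 4 arrays.

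Both small heat shock proteins, which hold damaged proteins in a foldable state, were above WT on each direct array and missed the threshold. Hspb1 read 0.39, 0.52 and 0.71 (0.44 ± 0.12, adjusted p = 0.0866). Hspb8, the partner of Bag3 in chaperone-assisted autophagy, read 0.63, 0.43 and 0.39 (0.33 ± 0.10, adjusted p = 0.117). Among the J-domain proteins, Dnajb4 was at 0.35 ± 0.13 and Dnajb6 at 0.21 ± 0.07, each above WT on 3 of 3 arrays. The Cct subunits lay between -0.02 and 0.23, with 0 of 5 at an unadjusted p under 0.05.

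Of the mitochondrial members, 4 of 5 had a fitted change below 0 in Dil minus WT, as had 5920 of 12097 features. At an unadjusted p under 0.05, 2 of the 5 were below WT and 0 above, beside 8.15% and 8.09% of features. Hspd1, the Hsp60 of the matrix, read -0.35, -0.40 and -0.01 (-0.22 ± 0.07, adjusted p = 0.147), and Dnajc15, a J-domain protein of the inner membrane, read -0.11, -0.14 and -0.46 (-0.23 ± 0.09, adjusted p = 0.215). Hspa9, the matrix Hsp70, was at -0.09 ± 0.08, Dnaja3 at -0.09 ± 0.08 and Dnajc11 at 0.17 ± 0.11. None of the 5 passed.

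ER members in dilated hearts had a median of 0.15 over WT (range 0.01 to 0.55), with 0 of 15 passing (limma) and 2 above WT at an unadjusted p under 0.05, beside 8.09% of features. All 15 were above 0, as were 51.1% of features, and 5 were above WT on all 3 direct arrays, as were 14.0% of features. The median of the set estimates was 0.25, 0.46, 0.12 and 0.12. On the direct arrays of sets 1, 3 and 4 it was 0.23, 0.15 and 0.10. The estimate of set 2 comes from its other arrays and shares the WT2 and Hyp2 array with Hyp minus WT. Dnajc3 read 0.42, 0.08 and 0.30 in sets 1, 3 and 4 (0.39 ± 0.12, 1.31-fold, adjusted p = 0.119). Calr read 0.98, -0.27 and 0.91 (0.55 ± 0.26, adjusted p = 0.330). Pdia5 was at 0.21 ± 0.10, Canx at 0.21 ± 0.11, Dnajb11 at 0.31 ± 0.15 and Dnajc25 at 0.15 ± 0.07. Hspa5 read 0.53, 0.13 and -0.37 (0.10 ± 0.11), Hsp90b1 read 0.24, 0.10 and -0.37 (0.12 ± 0.16), and Xbp1 read 0.68, 0.07 and 0.19 (0.27 ± 0.16). For Hspa5 and Hsp90b1 set 1 was above WT and set 4 below it. Atf4 was at 0.15 ± 0.08, with spots that read 0.77 and -0.67 on the array of set 3, and Atf6 was at -0.09 ± 0.07.

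**Figure D4:**
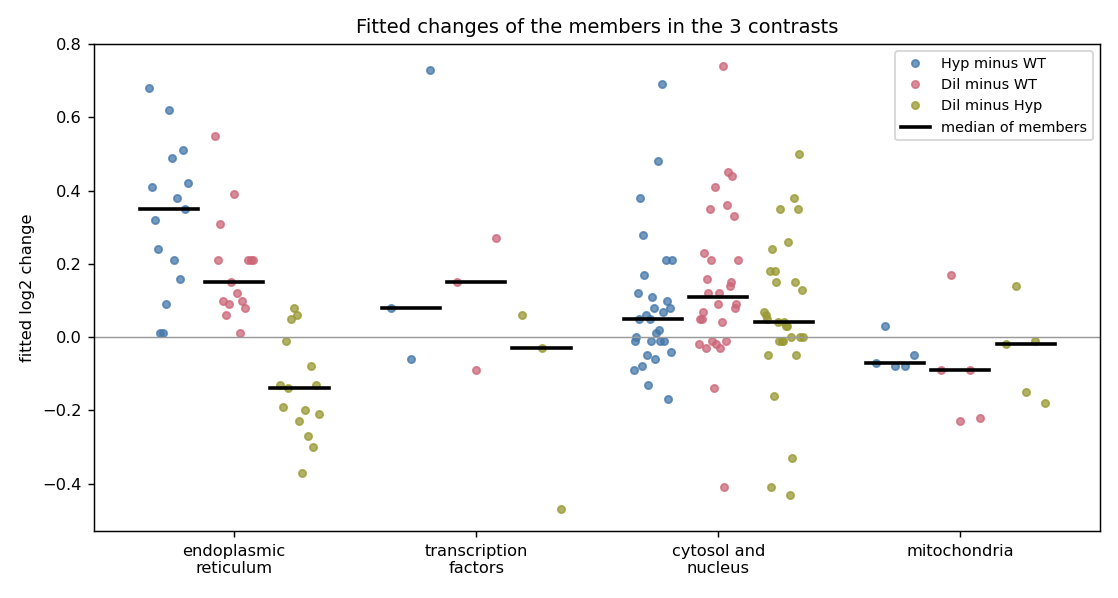
Fitted log2 changes of 53 members (points; Hspg2 left out) in the 3 contrasts, by compartment, with medians as black bars. The ER medians are 0.35, 0.15 and -0.14 in Hyp minus WT, Dil minus WT and Dil minus Hyp, and the cytosolic ones 0.05, 0.11 and 0.04.

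Dil and Hyp hearts were compared directly on 4 arrays, and this contrast is also the test of whether the changes against the shared WT mice differ. None of the 54 members passed it (limma, background 0.165% of 12097 features). At an unadjusted p under 0.05, 3 ER members were lower in Dil and 0 higher, beside 4.37% and 5.27% of features, and 12 of 15 ER members had a fitted change below 0, as had 51.6% of features. On all 4 direct arrays 4 of the 15 were below Hyp, as were 6.51% of features. The ER median was -0.14 (range -0.37 to 0.08). Over the set estimates it was -0.18, -0.30, -0.04 and -0.02, and on the direct arrays -0.17, -0.31, -0.13 and -0.03. Xbp1 read -0.58, -0.91, -0.20 and -0.45, below Hyp in all 4 sets (-0.47 ± 0.16, 1.38-fold lower, adjusted p = 0.314). Hspa5 read -0.30, -0.01, -0.37 and -0.37 (-0.27 ± 0.11), and Hsp90b1 -0.26, -0.74, -0.14 and -0.09 (-0.37 ± 0.15). Averaged over spots, both were at or below Hyp throughout. The 6 Hspa5 spots differed here too, with means over the direct arrays from -0.45 to 0.15 and 1 of them above 0. Pdia4 was at -0.30 ± 0.13, Dnajc3 at -0.23 ± 0.11, Pdia6 at -0.21 ± 0.11 and Canx at -0.19 ± 0.10. Calr was at -0.13 ± 0.25, Atf4 at 0.06 ± 0.07 and Atf6 at -0.03 ± 0.06. A lower ER response in Dil than in Hyp was thus not shown for any single member.

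The cytosolic members closest to the threshold in Dil minus Hyp were Dnajc2, Hspb8, Hspa12a and Hspa4. Dnajc2 read 0.08, 0.40, 0.41 and 0.48 (0.35 ± 0.06, 1.28-fold, adjusted p = 0.0558). Hspb8 read 0.34, 0.55, 0.33 and 0.43 (0.50 ± 0.09, 1.41-fold, adjusted p = 0.0594), above Hyp in every set. Hspa12a read -0.29, -0.35, -0.35 and -0.68 (-0.43 ± 0.09, adjusted p = 0.0845), and Hspa4 read 0.13, 0.36, 0.51 and 0.37 (0.38 ± 0.09, adjusted p = 0.159). Each of these 4 had one sign in all sets. Hsp90aa1 read 0.01, -0.05, 0.52 and 0.77 (0.26 ± 0.14, adjusted p = 0.630), level with Hyp in sets 1 and 2 and above it in sets 3 and 4. Dnaja1 was at -0.41 ± 0.17, with -0.54, -0.70, -0.25 and 0.15. Hspa1b split by set (-0.44, -1.86, 0.47 and 0.53, fitted change -0.33 ± 0.31), and Hspa8 was at -0.05 ± 0.09. Of 30 cytosolic members, 5 were above and 2 below Hyp at an unadjusted p under 0.05, beside 5.27% and 4.37% of features. Over the 5 mitochondrial members the median was -0.02.

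**Figure D5:**
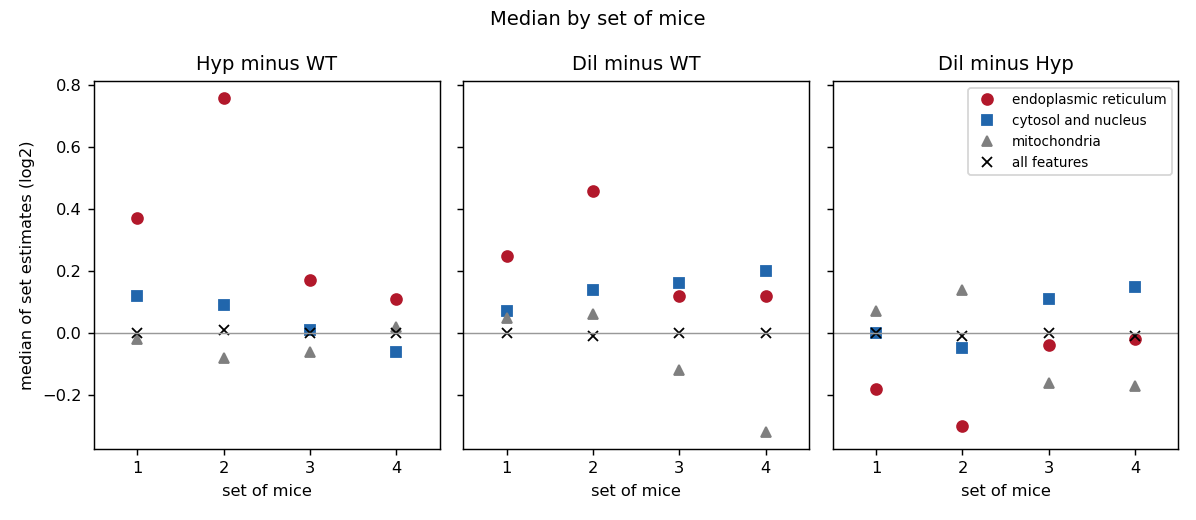
Median of the set estimates (log2) of ER, cytosolic and mitochondrial members and of all features, by set of mice, for each contrast. The ER median is highest in set 2 in Hyp minus WT (0.76) and lowest in set 2 in Dil minus Hyp (-0.30), and the median of all features stays within 0.01 of 0.

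Other genes of the 2 folding systems were taken from lists of 46 and 34 symbols. Of the ER list 28 were tested, and in Hyp minus WT 10 were above WT at an unadjusted p under 0.05 (2.43% of features), 0 below and 0 passing, with a median of 0.11. The largest was Manf, a secreted ER stress protein, with 1.56, 1.43, 0.40 and -0.01 in sets 1 to 4 (0.76 ± 0.21, adjusted p = 0.900), which repeats the order of Calr by set. Syvn1 was at 0.38 ± 0.12, the stress-induced factor Atf3 at 0.45 ± 0.14 and Edem1, which extracts misfolded glycoproteins, at 0.24 ± 0.09. Ern1, the kinase and nuclease that splices Xbp1, was at -0.02 ± 0.07, and P4hb, a major disulfide isomerase, at 0.01 ± 0.05. In Dil minus WT the median was 0.14. At an unadjusted p under 0.05, 9 of the 28 were above WT and 0 below, beside 8.09% and 8.15% of features. In that contrast 1 of the 28 passed, beside 2.15% of all features, so the count of passing genes says little about the list. Ppp1r15a (Gadd34), which restores translation by dephosphorylating eIF2alpha, rose with 0.34, 0.56 and 1.00 in sets 1, 3 and 4 (0.61 ± 0.09, adjusted p = 0.00967). In Dil minus Hyp 0 passed, and Ppp1r15a was at 0.35 ± 0.08 (adjusted p = 0.153).

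The cytosolic and mitochondrial list had 28 tested genes, with medians of 0.05, 0.02 and 0.00 in Hyp minus WT, Dil minus WT and Dil minus Hyp. In Dil minus WT 1 of the 28 passed, again beside 2.15% of all features. Bag2, an Hsp70 cofactor that blocks the ubiquitin ligase Stub1, rose with 0.12, 0.43 and 0.68 (0.46 ± 0.07, adjusted p = 0.0143). Bag3, the partner of Hspb8, read 0.38, -0.12 and 1.36 (0.51 ± 0.14, adjusted p = 0.101). The Hsp90 partners Fkbp5 and Fkbp4 lay on opposite sides, Fkbp5 with -0.03, 1.20 and 1.38 (0.70 ± 0.27) and Fkbp4 with 0.16, -0.96 and -0.65 (-0.50 ± 0.18), neither passing. Cryab, the major small heat shock protein of heart muscle, was at 0.19 ± 0.16 in Dil minus WT and -0.17 ± 0.15 in Hyp minus WT.

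Ratios carry no level, so the presence of ventricular markers could not be checked, and 3 of 14 listed cardiomyocyte markers were tested (Ryr2, Ttn and Actn2, with medians of 0.04 in Hyp minus WT and 0.08 in Dil minus WT). In Dil minus WT they lay apart, with Actn2 at 0.46 ± 0.18 and above WT on all 3 arrays, and Ryr2 at -0.33 ± 0.12 and below on all 3. In Hyp minus WT, 0 of the 10 tested fibroblast, 6 endothelial, 3 smooth muscle, 5 adipocyte and 2 macrophage or leukocyte markers were at an unadjusted p under 0.05, and 0 of 9 lymphocyte and plasma cell markers were tested. In Dil minus WT the set estimates of the fibroblast markers had medians of -0.10, -0.01, 0.44 and 0.36. On the direct arrays of sets 1, 3 and 4 the medians were 0.02, 0.48 and 0.22. Of the 10, 3 were above WT at an unadjusted p under 0.05 and 0 below, beside 8.09% and 8.15% of features. Fitted changes were above 0 for 8 of the 10 and below 0 for 2. Col3a1 was at 0.62 ± 0.17, whereas Pdgfra was at -0.20 ± 0.10 and below WT on all 3 arrays. The smooth muscle markers had a median of -0.42, with Myh11 at -0.73 ± 0.18. At an unadjusted p under 0.05, 2 of these 3 were below WT, beside 8.15% of features. The 1 erythrocyte marker tested, Alas2, was at 0.35 ± 0.12. In Dil minus Hyp, Alas2 was at 0.59 ± 0.12 and higher in Dil on all 4 arrays, Col3a1 was at 0.51 ± 0.16, and the smooth muscle marker Smtn and the adipocyte marker Retn were lower in Dil on all 4 arrays, at -0.50 ± 0.15 and -0.47 ± 0.12. At an unadjusted p under 0.05 stood 3 of 10 fibroblast markers above Hyp, beside 5.27% of features. Below Hyp at that p stood 2 of 3 smooth muscle and 2 of 5 adipocyte markers, beside 4.37% of features. The adipocyte markers Fabp4, Lep and Plin1 were at 0.12 ± 0.13, 0.05 ± 0.08 and 0.00 ± 0.07. None of these markers passed in any contrast. Ratios were also wider on the Dil and WT arrays of sets 3 and 4 (median absolute deviation 0.313 and 0.327) than on that of set 1 (0.153). On the direct arrays, Hsp90aa1 and Hspa12a in Dil minus WT were further from 0 in sets 3 and 4 than in set 1. Hspa4 was furthest from 0 in set 4. The set estimates of Hsp90aa1 were 0.41, 1.11, 0.82 and 0.80 in sets 1 to 4, and those of Hspa4 were 0.26, 0.68, 0.44 and 0.52. Set 2, which has no direct array here, had the highest of the 4 set estimates for both genes. The set 2 estimate of Hspa12a was -0.30. The part of the marker and spread differences in these Dil values and in the Dil minus Hyp values was not tested.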

How the data were processed

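The authors deposited 1 table of log ratios, taken as log2 here, with a value at 17207 of 17664 spots on each of 11 arrays. Scanner, background correction, normalization, log base and ratio direction: not given in the sources used here. Spot brightness was not used here, so the number of arrays limits precision. On the array of WT1 and Hyp1, 11520 spots were displaced by 8 print blocks (24 of 24 comparable blocks) and were moved back, raising the correlation of its ratios with those implied by the other arrays of set 1 from 0.488 to 0.807; 3840 spots were left empty there, and Dnajc17, Dnajc25 and Hspb1 were fitted without it. Among the empty spots were some of Canx, Hspa8, Hsp90b1, Hspa12a, Hsph1 and further members. Their values on that array average the spots that remain. For an emptied spot, the Hyp minus WT mean leaves out set 1. Control spots (736) were left out. Of the rest 12563 spots had 1 gene symbol, 412 several and 3953 none listed; spots of a gene were averaged, and features needed a value on 9 arrays. There were 15 spots listing a member beside another symbol, and they were not counted as members.

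Each feature was fitted by generalised least squares with Hyp minus WT, Dil minus WT and dye as terms and mice as random effects (variance ratio 0.303, shared by all features), then moderated with limma 3.58.1 in R 4.3.3 and adjusted by Benjamini-Hochberg. Residual degrees of freedom count arrays, not mice, and each group is 4 separate mice. The fit was tested on simulated data. Members and lists were chosen with earlier results of these data known. Given in full were the transcription factors, Hspa5, Hsp90b1, Calr, Canx, members passing in any contrast, and per contrast the 6 ER and 4 cytosolic or mitochondrial members of smallest p; other genes named beside them were chosen after their values were seen. Protein ends were planned but no protein sequences were used here. The 16 alternatives covered the displaced array, the set block, mouse and dye terms, direct arrays, scaling, centring, spot summary, filters and left-out sets.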

Additional observations from a re-analysis of the deposited data

Results flagged for a closer look

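Of 69 groups of 4 set estimates examined (21 members and 2 medians in 3 contrasts), 2 had a set far from the other sets, and chance alone marks about 1 group in 20. In Hyp minus WT, Pdia5 was at 0.76 in set 2 and at 0.25, 0.25 and 0.18 in sets 1, 3 and 4. In Dil minus Hyp, Hsp90b1 was at -0.71 in set 2 and at -0.25, -0.18 and -0.24 in the others. Both values rest on arrays of the mouse Hyp2, and the cause was not tested.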

How the results depend on the processing

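Under the 16 alternatives the median of ER members stayed between 0.16 and 0.41 in Hyp minus WT, 0.10 and 0.22 in Dil minus WT and -0.22 and -0.04 in Dil minus Hyp, and 0 features passed in Hyp minus WT under any. The ER count of 11 in Hyp minus WT became 7 with the array left out, 4 with the column as deposited, 6 with direct arrays only, 1 without sets 1 and 2 (added after the data were seen), and 7 to 11 without single sets. The 260 features passing in Dil minus WT became 159 with the array left out, 6 with the set as replicate block, 0 with direct arrays only (777 at an unadjusted p under 0.05), 119 with no dye term, 107 with arrays scaled to one spread, and 0 to 121 without single sets. The 4 members became 1 with the array left out, 0 with the block, 0 with direct arrays only, 2 with no dye term, 1 with arrays scaled, 2 without sets 1 and 2, and 0 to 3 without single sets. The 2 ER members above WT at an unadjusted p under 0.05 became 1 with the column as deposited, direct arrays only, no dye term or arrays scaled, 6 with the block, 0 without sets 1 and 2, and 1 to 4 without single sets. The 20 features passing in Dil minus Hyp became 7 with the array left out, 41 with the column as deposited, 0 with the block or direct arrays only, 52 with no mouse effect, 162 without sets 1 and 2, and 0 to 15 without single sets. The 0 members became 2 with the column as deposited or no mouse effect (Dnajc2 and Hspb8), and 1 with arrays scaled (Hspa12a) or a value on all 11 arrays (Dnajc2). The 3 ER members below Hyp became 1 with the column as deposited, 5 with no mouse effect or arrays scaled, 1 without sets 1 and 2, and 0 to 2 without single sets. Dnajc2 passed in Dil minus WT under 10 alternatives, Hsp90aa1 under 9, Hspa12a under 8 and Hspa4 under 7. With the set number as block, each set gives 1 estimate, and the pairing is that arrays only join mice of equal number; adjusted p was then 0.0902 for Dnajc2, 0.0839 for Hsp90aa1, 0.0965 for Hspa4 and 0.192 for Hspa12a.

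The median of cytosolic members in Hyp minus WT, 0.05, was -0.03 without sets 1 and 2 and between 0.02 and 0.06 otherwise. Among single members, signs turned only for those that had not passed in the contrast. In Hyp minus WT, Atf4 was -0.01 without set 1 (-0.01 to 0.15 over single sets) and -0.07 without sets 1 and 2, Dnaja1 -0.05, Dnajb11 -0.02, Hspa1b -0.03 and Hspa4 -0.01 without sets 1 and 2, and Hspa12a -0.01 with the array left out or as deposited and -0.06 without set 1 or sets 1 and 2. In Dil minus WT, Dnaja1 was 0.03 with the block, 0.04 with arrays scaled and 0.12 without set 4 (-0.13 to 0.12 over single sets), Hsp90b1 -0.01 with direct arrays only and -0.03 without sets 1 and 2, and Hspa5 -0.02 without set 1 (-0.02 to 0.26) and -0.16 without sets 1 and 2. In Dil minus Hyp, Atf4 was -0.01 and Atf6 0.01 without set 4, Calr 0.10 without set 1 (-0.23 to 0.10), Dnajb11 0.01 with the array left out, 0.06 as deposited, 0.00 with the block, 0.08 without set 1, 0.12 without set 2 (-0.15 to 0.12) and 0.27 without sets 1 and 2, Hspa1b 0.16 without set 2 (-0.59 to 0.16) and 0.46 without sets 1 and 2, and Hspa8 0.01 without set 1, 0.02 without set 2 and 0.12 without sets 1 and 2. The causes were not tested.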
